A study of Homo sapiens with 8 samples.

Results

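The peaks of chromosomes 18 and 19 were compared in 8 lists of accessible regions from mitotic human cells. Members were all peaks of the 8 lists that lay on either chromosome, 43174 on chromosome 18 and 40206 on chromosome 19, or 83380 of the 1546498 peaks on chromosomes 1 to 22 and X. The lists came from ATAC-seq, in which the Tn5 transposase cuts open DNA and tags it for sequencing. Each list belonged to 1 library of hTERT RPE-1, a telomerase-immortalised epithelial cell line of retinal pigment origin. In all 8 libraries the genotype was Plk1-/- EGFP-Plk1as, so the cells, controls included, lacked their own Plk1 and lived on an EGFP-tagged analog-sensitive form of this mitotic kinase. All cells had been held in 5 µM STLC, a spindle motor inhibitor that arrests cells in prometaphase, for 16 h and were harvested by shake-off. Then, with STLC still present, 4 libraries received 0.5% DMSO for 2 h and 4 received 10 µM 3MB-PP1, which inhibits the analog-sensitive kinase. More than 95% of the cells were in mitosis, and 50000 cells entered each transposition reaction. The design text calls the 4 libraries of a group biological replicates. A single engineered line was used, and p-values measure the spread between these libraries only.

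Chromosomes 18 and 19 are a textbook contrast in the human genome. Chromosome 19 is crowded with short genes and CG-rich DNA and usually lies toward the interior of the interphase nucleus, while chromosome 18 is gene-poor and lies toward the nuclear edge. In mitosis both are condensed and most transcription stops, yet many promoters stay accessible to Tn5. In the gene table used here, chromosome 18 held 268 protein-coding genes over the 80.3 Mb between its first and last peak, or 3.34 per Mb, the lowest density of 23 chromosomes. Chromosome 19 held 1410 over 58.5 Mb, or 24.1 per Mb, the highest density. The median protein-coding gene was 52.1 kb long on chromosome 18 and 14.5 kb on chromosome 19, and such genes took up 36.7% and 53.7% of the 2 spans.

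Promoters on both chromosomes varied in their number of CG dinucleotides. The 4 promoters that follow show the gene with the highest-ranked gene-end peaks on each chromosome that has a sequence at its annotated start in the RefSeq promoter table, and a gene of the families described further on with no gene-end peak in any list. A gene-end peak is one no more than 1 kb from where the annotation starts or ends a protein-coding gene. Each sequence runs 5′ to 3′ from 250 bases before to 50 bases after the gene's start in RefSeq's GRCh38.p14, with every CG in capitals. SEH1L (nucleoporin; chr18:12947761-12948060, plus strand, 25 CG) and DSG1 (desmoglein of epidermis; chr18:31317910-31318209, plus strand, 3 CG) are on chromosome 18. MBOAT7 (lysophospholipid acyltransferase; chr19:54189531-54189830, minus strand, 27 CG) and ZNF726 (zinc finger protein; chr19:23914636-23914935, plus strand, 16 CG) are on chromosome 19.
SEH1L: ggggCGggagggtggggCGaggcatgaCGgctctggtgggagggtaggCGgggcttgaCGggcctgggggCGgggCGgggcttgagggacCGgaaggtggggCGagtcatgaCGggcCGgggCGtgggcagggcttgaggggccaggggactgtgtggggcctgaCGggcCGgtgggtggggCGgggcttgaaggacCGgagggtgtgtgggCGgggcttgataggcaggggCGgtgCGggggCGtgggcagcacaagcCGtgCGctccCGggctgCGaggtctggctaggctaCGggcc
DSG1: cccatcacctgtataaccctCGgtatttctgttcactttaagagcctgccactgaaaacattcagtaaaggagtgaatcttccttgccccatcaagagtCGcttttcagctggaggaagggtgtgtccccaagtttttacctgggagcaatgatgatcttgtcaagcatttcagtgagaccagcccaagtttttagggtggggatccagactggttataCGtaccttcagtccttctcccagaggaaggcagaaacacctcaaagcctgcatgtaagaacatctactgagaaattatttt
MBOAT7: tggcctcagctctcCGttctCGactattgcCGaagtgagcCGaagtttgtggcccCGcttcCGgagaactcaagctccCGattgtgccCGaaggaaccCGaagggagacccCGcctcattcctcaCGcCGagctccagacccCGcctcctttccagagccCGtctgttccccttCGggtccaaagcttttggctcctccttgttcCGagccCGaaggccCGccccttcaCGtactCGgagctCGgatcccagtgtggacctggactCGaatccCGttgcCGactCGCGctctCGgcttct
ZNF726: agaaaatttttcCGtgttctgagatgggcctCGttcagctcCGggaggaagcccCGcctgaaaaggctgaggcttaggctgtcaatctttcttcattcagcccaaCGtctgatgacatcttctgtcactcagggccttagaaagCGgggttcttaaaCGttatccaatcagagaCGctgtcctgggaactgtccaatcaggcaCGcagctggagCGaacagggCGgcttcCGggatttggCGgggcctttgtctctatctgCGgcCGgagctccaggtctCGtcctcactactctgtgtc
Promoters were counted where the start in the promoter table lay within 1 kb of the gene's annotated start, which left 205 of 268 genes on chromosome 18 and 1084 of 1410 on chromosome 19. The median number of CG was 27 and 21, beside 23 over 14292 promoters of all chromosomes. Promoters of genes with a gene-end peak in all 8 lists held a median of 30 CG on chromosome 18 and 25 on chromosome 19, and 27 over all chromosomes. Promoters of genes without one in any list held 6 on chromosome 18 (9 promoters) and 7.5 on chromosome 19 (36 promoters), beside 4 for such genes of all chromosomes (1088 promoters). The 16 CG of ZNF726 lie above this chromosome 19 median, whose quartiles were 5 and 22.5. Of these genes without a gene-end peak, 22.2% on chromosome 18 and 38.9% on chromosome 19 had 15 or more CG in the window, against 19.4% over all chromosomes. These shares are descriptions of few promoters and were not tested.

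Across the whole series a list held 150577 to 252752 peaks, and the lists give no read totals, so depth is unknown and no counting interval was computed. Peak lists cannot check the Plk1 deletion itself. The labelled cell type was checked by gene-end peaks: KRT8, KRT18, VIM, CDH2, MITF and OTX2 had one in 8 of 8 lists and PAX6 and RLBP1 in 5, while RPE65 had none and BEST1 had one in 2. Of the markers of other cell types, PTPRC and ALB had none, INS had one in 2 lists and CD3E in 8. Of all protein-coding genes 60.4% had a gene-end peak in 8 of 8 lists, so such a call says little about cell type. By mean percentile of fold enrichment over background within a list, VIM was at 97.9, MITF at 96.0 and CDH2 at 85.1. OTX2 was at 35.9, KRT8 at 11.1 and KRT18 at 10.5, below CD3E at 76.0. Libraries of odd and even replicate number stood apart in several measures on these chromosomes, a split that no label names as a batch.

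Per Mb, chromosome 19 had more peaks than chromosome 18 in every library. Its median peak over all classes was wider, and its peaks covered more of the span. Chromosome 18 carried 45.2, 54.4, 61.1 and 73.5 peaks per Mb in DMSO replicates 1 to 4 and 63.6, 82.1, 86.2 and 71.9 in 3MB-PP1 replicates 1 to 4. Chromosome 19 carried 66.0, 65.1, 80.6 and 91.3 in DMSO and 106.2, 90.2, 107.9 and 79.7 in 3MB-PP1. Chromosome 19 was thus the denser in 8 of 8 libraries, although the ranges over libraries overlapped. The lists also differ in length, and the part of length in this overlap was not tested. The mean log2 ratio of density was 0.36 ± 0.20 (SD, n = 8 libraries), or 1.28-fold (exact two-sided sign-flip test, p = 0.0078, Benjamini-Hochberg adjusted over 6 measures 0.0078), and 0.0078 is the smallest p that 8 libraries allow. This is small beside the difference in gene density given above. Peaks covered 2.99% ± 0.42 of chromosome 18 and 4.70% ± 0.45 of chromosome 19 (SD, n = 8), a mean log2 ratio of 0.66 ± 0.25 (exact sign-flip p = 0.0078, adjusted 0.0078, higher in 8 of 8 libraries). The median peak was 327 bp ± 51.5 wide on chromosome 18 and 387 bp ± 74.2 on chromosome 19 (SD, n = 8), a difference of 60.1 bp ± 33.1 (exact sign-flip p = 0.0078, adjusted 0.0078, wider in 8 of 8). Away from gene ends the medians were closer, at 315.5 and 328.5 bp (wider on 19 in 6 of 8). Outside annotated genes of any type they were 314 and 311 bp (wider on 19 in 3 of 8), and at gene ends chromosome 18 had the wider peaks. The width difference over all peaks thus also reflects the larger share of gene-end peaks on chromosome 19. Among peaks with a −log10 q of at least 5 the width difference had the opposite sign and did not pass the test, at −16.3 bp (exact sign-flip p = 0.422), while the log2 ratio of density rose to 2.02.

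**Figure D1:**
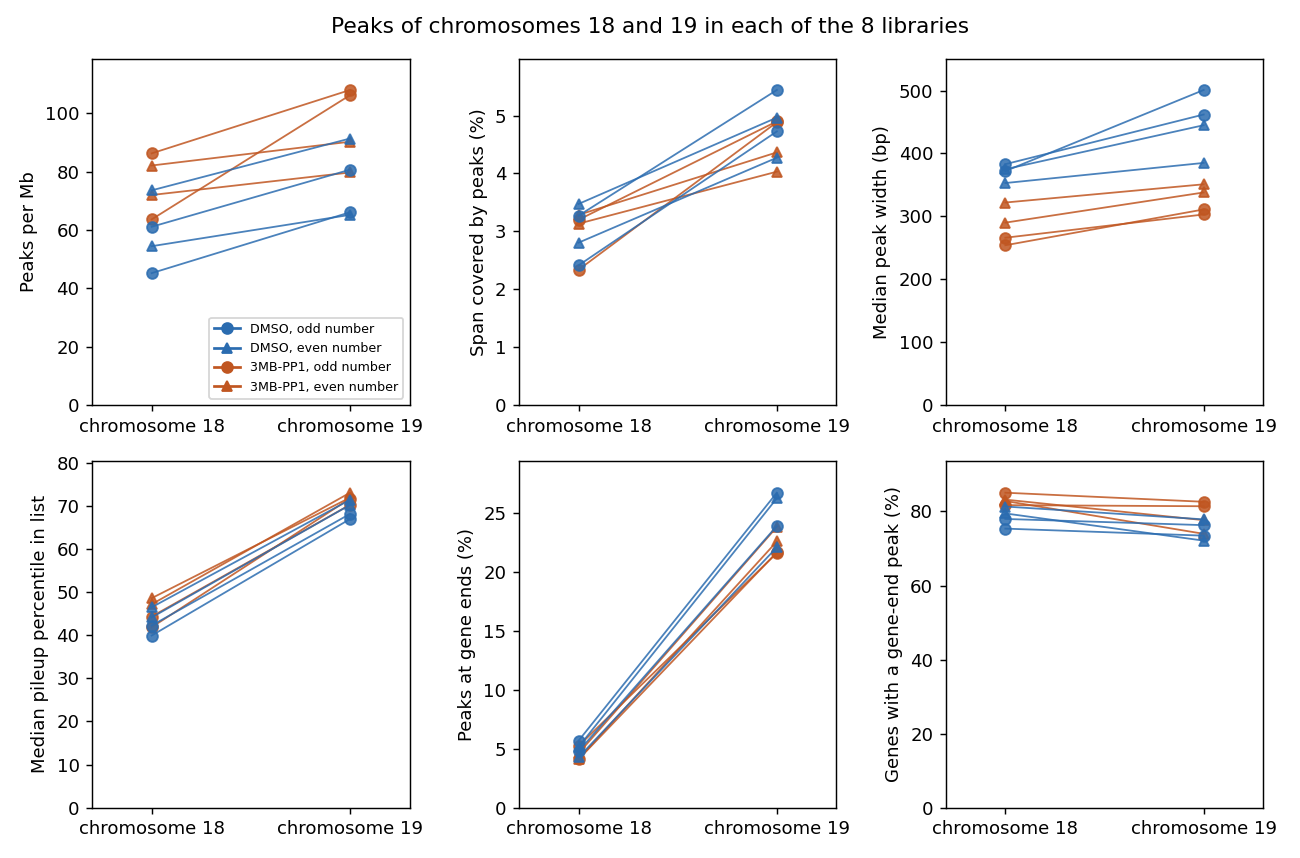
Each panel plots 1 measure (y axis, from 0, unit in the label) on chromosome 18 and chromosome 19, with a line joining the 2 values of each of the 8 libraries (blue DMSO, orange 3MB-PP1; circles odd and triangles even replicate numbers). Every line rises from 18 to 19 except in the last panel, the share of genes with a gene-end peak, where every line falls.

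Whether chromosome 19 peaks ranked higher depended on the measure of height. Within each list, peaks of chromosomes 1 to 22 and X were given a percentile from 0 to 100, and the median over a chromosome was taken. By pileup, the height of overlapping fragments, chromosome 18 stood at 44.3 ± 2.95 and chromosome 19 at 70.4 ± 2.04 (SD, n = 8), a difference of 26.1 ± 1.86 points (exact sign-flip p = 0.0078, adjusted 0.0078, higher in 8 of 8). By the authors' fold enrichment over local background the order turned, with 52.9 on chromosome 18 and 36.6 on chromosome 19, a difference of −16.3 points (exact sign-flip p = 0.0078, lower in 8 of 8). By −log10 p the difference was 2.47 points, but in 3MB-PP1 replicate 1 alone chromosome 19 was the lower, at 48.4 against 50.9. Among 23 chromosomes, 19 ranked highest by mean pileup percentile and 22nd by fold enrichment, and 18 ranked 16th and 8th. The quotient of pileup and fold enrichment, a measure of the background the authors' peak caller set beside each peak, had a median on chromosome 19 of 1.26 to 1.35 times that of its whole list, and on chromosome 18 of 0.927 to 0.985 times. This quotient is computed from the same pileup and fold enrichment, so it is no separate observation of background. The part of background and of pileup in the ranks was not tested separately. Gene-end peaks showed the same turn, with a median pileup percentile of 86.8 on chromosome 18 and 89.2 on chromosome 19 (higher on 19 in 5 of 8 libraries) and a median fold percentile of 86.3 and 64.5 (lower on 19 in 8 of 8).

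**Figure D2:**
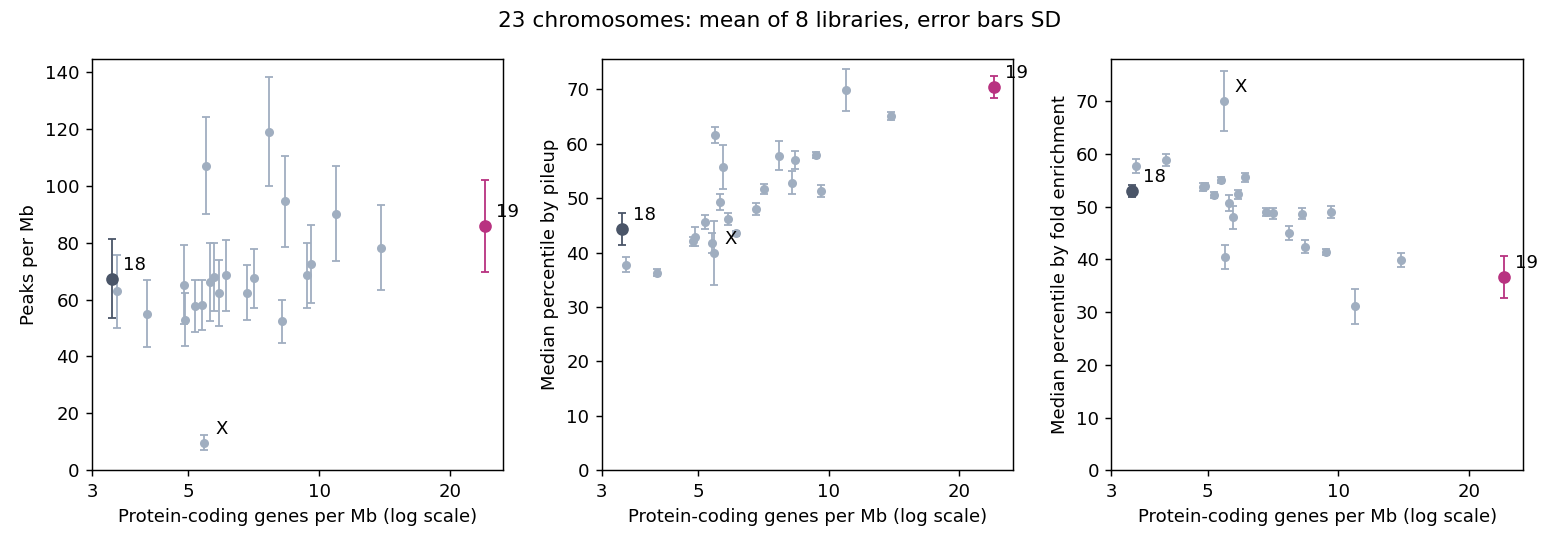
The 23 chromosomes are placed by protein-coding genes per Mb (x axis, log scale) against peaks per Mb, median pileup percentile and median fold-enrichment percentile (y axes; points are means of 8 libraries, error bars SD). Chromosome 19 has the highest pileup percentile (70.4) but only the fifth-highest peak density, and lies near the bottom by fold enrichment (36.6). Chromosome 18 lies at 44.3 by pileup and 52.9 by fold enrichment.

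The density difference was largest at gene ends. Gene-end peaks made up 4.75% ± 0.58 of peaks on chromosome 18 and 23.6% ± 2.00 on chromosome 19 (SD, n = 8), a difference of 18.9 ± 1.65 points (exact sign-flip p = 0.0078, adjusted 0.0078, higher in 8 of 8). Chromosome 18 was in places 21 to 23 of 23 for this share in every library and chromosome 19 in place 2. Per Mb, gene-end peaks numbered 3.12 ± 0.33 on chromosome 18 and 20.0 ± 2.26 on chromosome 19, a ratio of 6.41. With 3.34 protein-coding genes per Mb on chromosome 18 and 24.1 on chromosome 19, gene-end windows take up more of chromosome 19. A higher share there follows in part from the annotation, and the test of the share cannot separate the 2. Away from gene ends the densities were 64.1 ± 13.6 and 65.9 ± 14.0 per Mb, and chromosome 19 was the higher in 5 of 8 libraries. For the next 2 classes, annotated genes of any type were used, non-coding ones included. Peaks inside such genes but away from protein-coding gene ends numbered 35.8 and 45.5 per Mb, higher on 19 in 8 of 8 libraries. Peaks outside all annotated genes went the other way, with 28.3 on chromosome 18 and 20.3 on chromosome 19, lower on 19 in 7 of 8. Strong peaks, with a −log10 q of at least 5, remained denser on chromosome 19 also away from gene ends, at 1.21 and 2.70 per Mb (8 of 8 libraries). These classes are descriptions and were not tested.

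**Figure D3:**
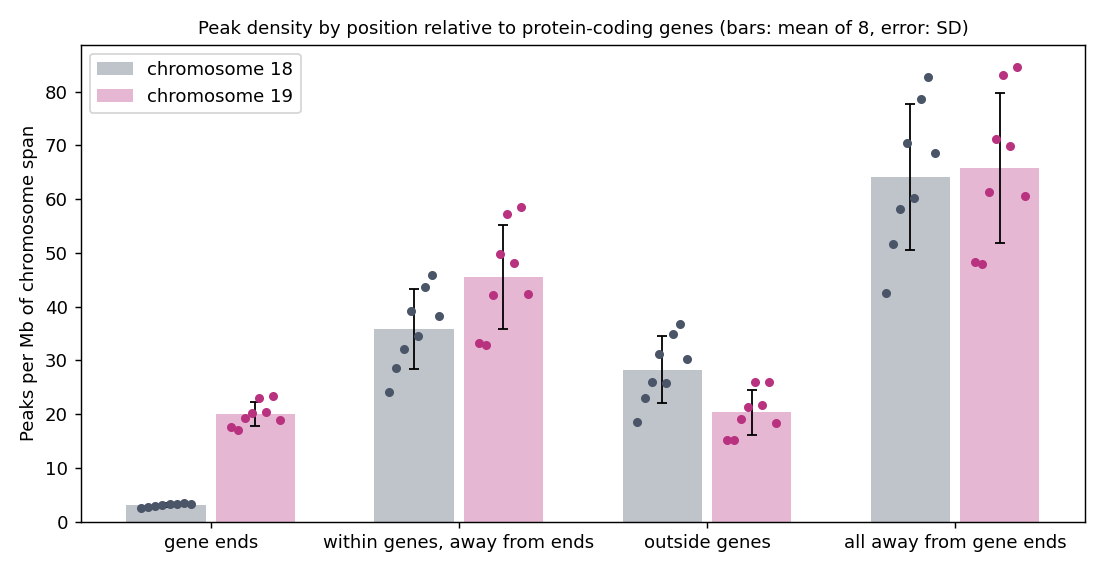
Bars give mean peaks per Mb of chromosome span (y axis, from 0) for peaks at gene ends, inside genes, outside genes and all away from gene ends, on chromosome 18 (grey) and 19 (pink), with error bars of SD and a point per library (n = 8). Gene ends are those of protein-coding genes, while inside and outside refer to annotated genes of any type. Gene-end peaks differ 6.41-fold in mean ratio, while all peaks away from gene ends have means of 64.1 and 65.9.

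Gene for gene, chromosome 18 was the better covered. The share of protein-coding genes that had a gene-end peak was 75.4, 79.5, 78.0 and 81.3% in DMSO and 81.7, 83.2, 85.1 and 82.8% in 3MB-PP1 on chromosome 18. On chromosome 19 it was 73.5, 72.1, 76.3 and 77.9% in DMSO and 81.4, 77.7, 82.6 and 74.0% in 3MB-PP1. Chromosome 19 was lower in 8 of 8 libraries, by 3.94 ± 3.01 points (exact sign-flip p = 0.0078, adjusted 0.0078), and by 1.08 points with a window of 2.5 kb (exact sign-flip p = 0.273). Gene-end peaks numbered 0.936 ± 0.099 per gene on chromosome 18 and 0.830 ± 0.094 on chromosome 19 (SD, n = 8). A peak at the ends of several genes was counted once, so genes that share a peak lower this number, and by how much was not tested. The gene-end peaks of chromosome 18 were also the wider, with a median of 1042 bp against 809 bp (8 of 8 libraries), the reverse of the order over all peaks.

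Peak numbers were also compared between bins of like gene content. Across 77 bins of 1 Mb on chromosome 18 and 57 on chromosome 19, the number of protein-coding genes and the number of peaks had a median Spearman correlation over libraries of 0.68 and 0.52, given as a description, since bins of a list share a library and its depth. Chromosome 18 had a median of 2 genes per bin and chromosome 19 of 25. Bins with 0 or 1 gene held 32.2 peaks per Mb on chromosome 18 (26 bins) and 38.4 on chromosome 19 (5 bins), higher on chromosome 19 in 6 of 8 libraries. Bins with 6 to 10 genes held 101 peaks per Mb on chromosome 18 (16 bins) and 53.0 on chromosome 19 (7 bins), and chromosome 19 was the lower in 8 of 8 libraries. Bins with 11 to 20 genes held 92.1 (3 bins) and 92.8 (4 bins). The 41 bins of chromosome 19 with more than 20 genes held 99.8, beside the 101 in the bins of chromosome 18 with 6 to 10. In 5 Mb bins of chromosome 19 gene numbers were lowest from 20 to 35 Mb (34, 7 and 34), against 123 or more elsewhere. The 1 Mb bins were matched by gene number only, and not by position or kind of gene.

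Genes whose ends held a peak in all 8 lists numbered 177 of 268 (66.0%) on chromosome 18 and 796 of 1410 (56.5%) on chromosome 19, where the background over 19817 genes was 60.4%. No list had a peak at the ends of 17 genes on chromosome 18 and 68 on chromosome 19. The best gene-end peak of SEH1L, a nuclear pore protein of the Y complex that also sits at kinetochores, was at pileup percentiles 99.94, 99.95, 99.96 and 99.96 in DMSO and 99.89, 99.93, 99.93 and 99.91 in 3MB-PP1, the highest mean on chromosome 18. CEP192, a centrosome scaffold that recruits Plk1 and Aurora A, was at 99.84 to 99.95. Also among the first 10 on chromosome 18 were PTPN2 (tyrosine phosphatase), ANKRD12, AFG3L2 (mitochondrial protease), ADNP2, USP14 (proteasome-bound deubiquitinase), IMPA2 (inositol monophosphatase) and VAPA (endoplasmic reticulum tether), with means from 99.78 to 99.90. Of the genes named here, ADNP2 lies near the end of the long arm and the others in the first 15 Mb of chromosome 18, on its short arm.

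On chromosome 19 the highest mean was at WDR88, at 99.992 to 99.997 in the 8 libraries. MBOAT7 and TSEN34, a tRNA splicing endonuclease subunit, share their peak, since the genes overlap at their starts. That peak was at pileup percentiles 99.97 to 99.99 in the 8 libraries. THAP8 and WDR62 (spindle pole protein) also share a peak. NAPA (SNARE disassembly), CIRBP (cold-inducible RNA-binding protein), DPP9 (dipeptidyl peptidase), TRIM28 (co-repressor of KRAB zinc finger proteins) and NDUFS7 (complex I subunit) completed the first 10, all with means above 99.96. By fold enrichment the shared MBOAT7 and TSEN34 peak and the CIRBP peak were at mean percentiles of 94.5 and 93.8, and the others of the 10 between 98.3 and 99.6.

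Gene families typical of each chromosome differed in how often they were called, read against the 60.4% of all genes that were called in 8 of 8 lists and the median pileup percentile of 91.2 over genes with any. On chromosome 18 the SMAD genes, of TGF-beta and BMP signalling, were called in all lists for 3 of 3 members, SMAD2, SMAD4 and SMAD7 (median percentile 98.9). Genes of cell division were called in all lists for 7 of 8 members (median 92.6), among them CEP192, the kinetochore gene NDC80 (98.6), TYMS, the cohesin acetyltransferase ESCO1, SKA1, CEP76 and HAUS1, while the repair gene RBBP8 had a peak in 1 list. Of the desmosomal cadherins, which join epithelial cells, DSG2, DSC2 and DSC3 had peaks in 8 lists, DSC1 in 7, and DSG1, DSG3 and DSG4 in none (3 of 7, median 45.4). DSG2 was at 77.8, 90.0, 88.3 and 70.8 in DMSO and 67.4, 82.4, 84.6 and 77.3 in 3MB-PP1, and these ranges overlap. Of the clade B serpins, a tandem cluster of protease inhibitors, 4 of 10 were called in all lists (SERPINB7, SERPINB8, SERPINB10 and SERPINB12, median over called members 38.3). CDH2, the N-cadherin gene, was called in 8 lists at a mean of 97.7, and CDH19 in 2.

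On chromosome 19 all 12 ribosomal protein genes were called in 8 of 8 lists (median 98.2), from RPL36 at 99.7 to RPS28 at 92.7. The immediate early genes JUNB, JUND, FOSB and IER2 were also called in every list (4 of 4, median 99.6), but by fold enrichment JUNB was at 27.0 and IER2 at 56.3 on average. Of 258 zinc finger genes, mostly transcriptional repressors in clusters, 158 (61.2%) were called in all lists, near the background, and 16 in none. Cell division genes were called in all lists for 4 of 6, HAUS5, HAUS8, SPC24 and CCNE1, while PLK5 had a peak in 7 lists and the meiotic kinase gene AURKC in 4. Clusters with restricted expression were seldom called throughout. These were the kallikrein proteases (2 of 15), the CEACAM and PSG adhesion proteins (8 of 22), the leukocyte receptors of the KIR, LILR and SIGLEC groups (5 of 28), the olfactory receptors (2 of 20) and the NLRP genes (0 of 9). By pileup percentile the peaks of all 5 clusters had medians below the 88.4 of chromosome 19 genes with a peak, at 79.6 for the kallikreins, 70.7 for CEACAM and PSG, 70.6 for the leukocyte receptors, 28.7 for the olfactory receptors and 30.4 for the NLRP genes. By fold percentile the order among them was different, with medians of 11.3, 29.1, 35.8, 53.3 and 55.3, beside 63.3 for chromosome 19 genes with a peak. Fewer cells with an open site and a less open site in each cell cannot be told apart in bulk libraries.

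**Figure D4:**
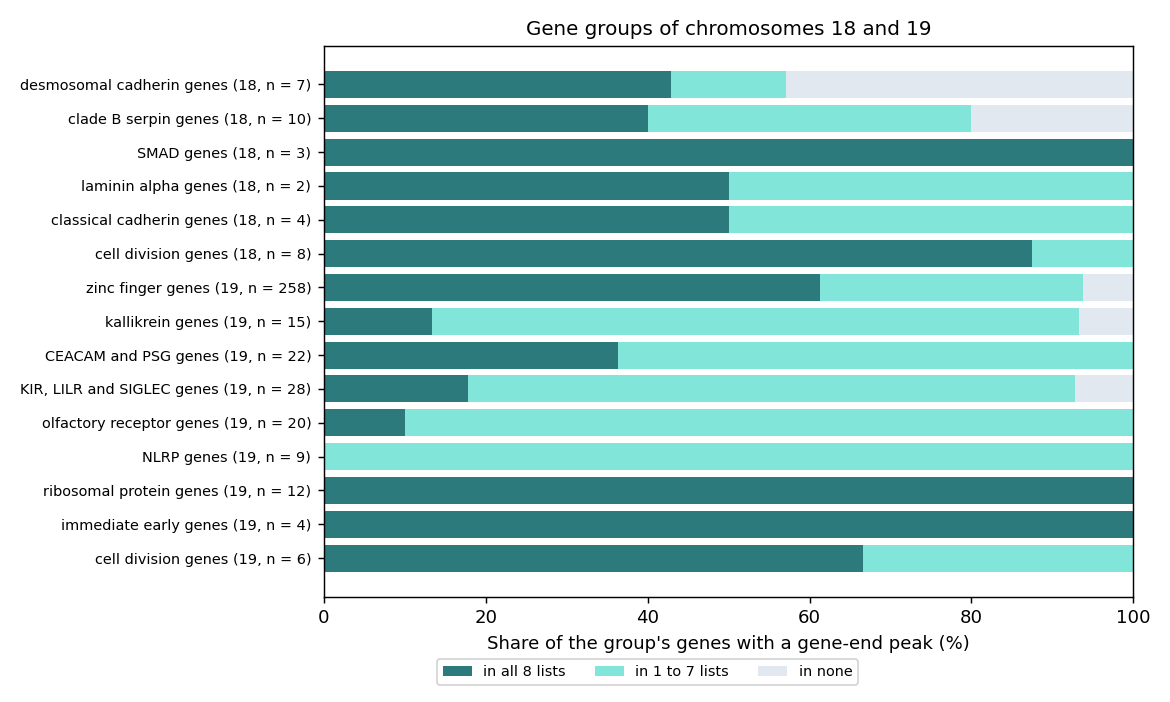
Each bar is a gene group of chromosome 18 or 19 (chromosome and number of genes in the label), divided by the share of its genes (x axis, percent) with a gene-end peak in all 8 lists (dark), in 1 to 7 (light) and in none (grey). The SMAD, ribosomal protein and immediate early genes are dark throughout, and no NLRP gene is called in all 8.

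Plk1 inhibition was then compared on each chromosome. None of the 6 measures of the contrast between the chromosomes differed between 3MB-PP1 and DMSO past the threshold. The log2 ratio of density averaged 0.38 in DMSO and 0.34 in 3MB-PP1 (exact two-sided permutation p = 0.83, adjusted over 6 measures 0.857), and the difference in pileup percentile 26.0 and 26.2 points (exact p = 0.857). The smallest unadjusted p was 0.143 for the width and gene-end share contrasts. Unadjusted p-values reached 0.0286 under other settings for the contrast of density among peaks with a −log10 q of at least 5 (a log2 difference of 0.17) and for that of width without DMSO replicate 4 (−49.9 bp). Within chromosomes, the median peak of chromosome 18 was 372, 375, 383 and 353 bp in DMSO and 254, 290, 266 and 322 bp in 3MB-PP1. On chromosome 19 it was 501, 445, 462 and 385 bp in DMSO and 311, 338, 303 and 351 bp in 3MB-PP1. All 3MB-PP1 libraries lay below all DMSO libraries on both chromosomes, by 87.8 bp in mean on 18 and 122 bp on 19 (exact permutation p = 0.0286 each, adjusted over 12 tests 0.114, and p = 0.13 with the replicate number as a block). With 1 library left out the unadjusted p rose to 0.0571 in 3 cases on 18 (DMSO replicate 1, 2 or 3) and in 4 on 19 (any 3MB-PP1 library). The exact permutation p of 0.0286 with all libraries and the block p of 0.13 are the smallest those tests allow. After leaving out 1 library the limit is also 0.0286, so the values of 0.0571 lie above it. For an adjusted p under 0.05, at least 7 of the 12 exact permutation tests need a p of 0.0286. The share of chromosome 18 genes with a gene-end peak was 78.5% ± 2.52 in DMSO and 83.2% ± 1.40 in 3MB-PP1, with no overlap (SD, n = 4; exact permutation p = 0.0286, adjusted 0.114, p = 0.13 with the block, and p = 0.0571 without any 1 of the 3MB-PP1 libraries). On chromosome 19 the same shares were 74.9% ± 2.62 and 78.9% ± 3.92 (exact permutation p = 0.143, adjusted 0.214).

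Few genes or regions were called in every library of one treatment and none of the other. Of protein-coding genes, ALPK2 (an alpha kinase, chromosome 18) and ZNF574 (chromosome 19) had a gene-end peak in 4 of 4 DMSO and 0 of 4 3MB-PP1 lists, at a background of 0.0555%. CGB2 (a chorionic gonadotropin beta gene), ZNF599 and LOC124904774, all on chromosome 19, had one in 4 of 4 3MB-PP1 lists only, at a background of 0.121%. ALPK2 was at pileup percentiles of 37.8, 6.80, 37.0 and 35.7, and ZNF574 at 86.1, 88.3, 89.2 and 92.3, in the DMSO lists. None of these 5 genes reached a −log10 q of 2.5 in any list. CGB2 lies among near-identical paralogs, so its reads may be shared between copies. Of merged regions, 15 of 16541 (0.0907%) on chromosome 18 and 7 of 14590 (0.0480%) on chromosome 19 were called in DMSO only, where the background was 0.12%. Called in 3MB-PP1 only were 32 (0.193%) and 28 (0.192%), where it was 0.148%. With any 1 library left out these numbers ran from 23 to 36 and 13 to 32 in DMSO only, and from 40 to 114 and 40 to 86 in 3MB-PP1 only. Among the highest-ranked of the latter, regions on chromosome 18 overlapped KCNG2 (a potassium channel subunit; chr18:79866734-79867101) and RAX (an eye-field homeobox gene; chr18:59272255-59273129), and on chromosome 19 DPF1 (a neuronal chromatin remodeling subunit; chr19:38227864-38228371) and CSNK1G2 (a casein kinase; chr19:1970333-1970937). Among the highest-ranked DMSO-only regions were ones in ONECUT2 on chromosome 18 and in SYT3 on chromosome 19. None of these named regions reached a −log10 q of 5 in any list.

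Regions shared by all 8 lists were commoner on chromosome 19, with 1266 (8.68%) against 849 (5.13%) on chromosome 18 and a background of 6.23%. They stood at 21.6 and 10.6 per Mb. Of the shared regions, 56.1% on chromosome 19 and 20.3% on chromosome 18 lay at gene ends, and 29.4% over all chromosomes. Shared regions away from gene ends that ranked highest overlapped ROCK1P1 (chr18:106778-111125), DLGAP1 (chr18:3623441-3625413) and TGIF1 (a homeobox repressor of TGF-beta signalling; chr18:3447863-3452499) on chromosome 18. On chromosome 19 they included ones in HNRNPL (an RNA-binding splicing factor; chr19:38849287-38851318) and FSTL3 (a secreted activin binder; chr19:679544-681099).

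The replicate number moved with the share of peaks on chromosome 18. Chromosome 18 held 2.41, 2.76, 2.48 and 2.97% of a list's peaks in DMSO replicates 1 to 4 and 2.39, 3.23, 2.74 and 3.38% in 3MB-PP1 replicates 1 to 4. The 4 even-numbered libraries were all above the 4 odd-numbered ones, in both treatments. The log2 ratio of the even to the odd mean, 0.30, was the highest of 23 chromosomes, while that of X was the lowest at −0.46. The even-numbered libraries were also all higher on chromosomes 10, 12, 16 and 21 and all lower on X (0.595 to 0.694% against 0.868 to 0.933%), while on chromosome 19 the groups overlapped. The 19 to 18 log2 ratio of density was accordingly 0.32 to 0.74 in odd-numbered and 0.14 to 0.31 in even-numbered libraries, and the 19 minus 18 difference in genes with a gene-end peak was −2.45 to −0.30 points in odd-numbered and −8.86 to −3.47 in even-numbered libraries. Chromosome 18 ranked 14 to 19 of 23 by density in odd-numbered and 6 to 11 in even-numbered libraries, and chromosome 19 ranked 5 in all 8. The contrast between chromosomes held its direction in both sets. Merged regions called in 4 of 4 odd-numbered and 0 of 4 even-numbered lists numbered 16 (0.0967%) on chromosome 18 and 45 (0.308%) on chromosome 19, where the background was 0.191%. The opposite pattern was found for 42 (0.254%) on chromosome 18 and 15 (0.103%) on chromosome 19, where it was 0.104%. The odd and even sets were formed after the values were seen, so no test is given.

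Along chromosome 18 the split had an exception. Of 16 bins of 5 Mb, 6 had all even-numbered above all odd-numbered libraries, where the background over 568 bins was 10.7%. The bin from 20 to 25 Mb, next to the centromere on the long arm, had all even-numbered below all odd-numbered libraries, where the background was 12.3%. It held 181, 121, 173 and 116 peaks per 100000 of the list in DMSO replicates 1 to 4 and 154, 103, 157 and 99.6 in 3MB-PP1 replicates 1 to 4. The log2 ratio of even to odd was −0.60, the 32nd lowest of the 568 bins. In regions of this bin called in all 8 lists (44 regions) the median pileup percentile was 41.9 to 55.7 in odd-numbered and 23.5 to 34.8 in even-numbered libraries. From 5 to 10 Mb (76 regions) the order was the reverse, 30.7 to 35.9 against 41.4 to 49.5. Of the 21 protein-coding genes in the bin, 5 had fewer peaks per 100000 in all even-numbered than in all odd-numbered libraries, namely GREB1L, ESCO1, LAMA3 (a laminin alpha chain of epithelial basement membrane), OSBPL1A and HRH4, and GATA6, a transcription factor gene of endoderm and heart, had more. Over all protein-coding genes the background was 2.98% for fewer and 1.75% for more, and on the whole of chromosome 18 the numbers were 6 and 24 of 268 genes. The bin was picked for its lower share in the even-numbered libraries, so nothing is read from the count of its genes. LAMA3 held 42, 38, 39 and 42 peaks in the odd-numbered lists and 25, 30, 28 and 25 in the even-numbered ones. These genes were singled out after their values were seen. With peaks of a −log10 q of at least 5 the odd and even shares of this bin overlapped (0.123 to 0.160% against 0.114 to 0.141%), while those of the whole of chromosome 18 did not (1.62 to 1.74% against 1.75 to 1.81%).

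**Figure D5:**
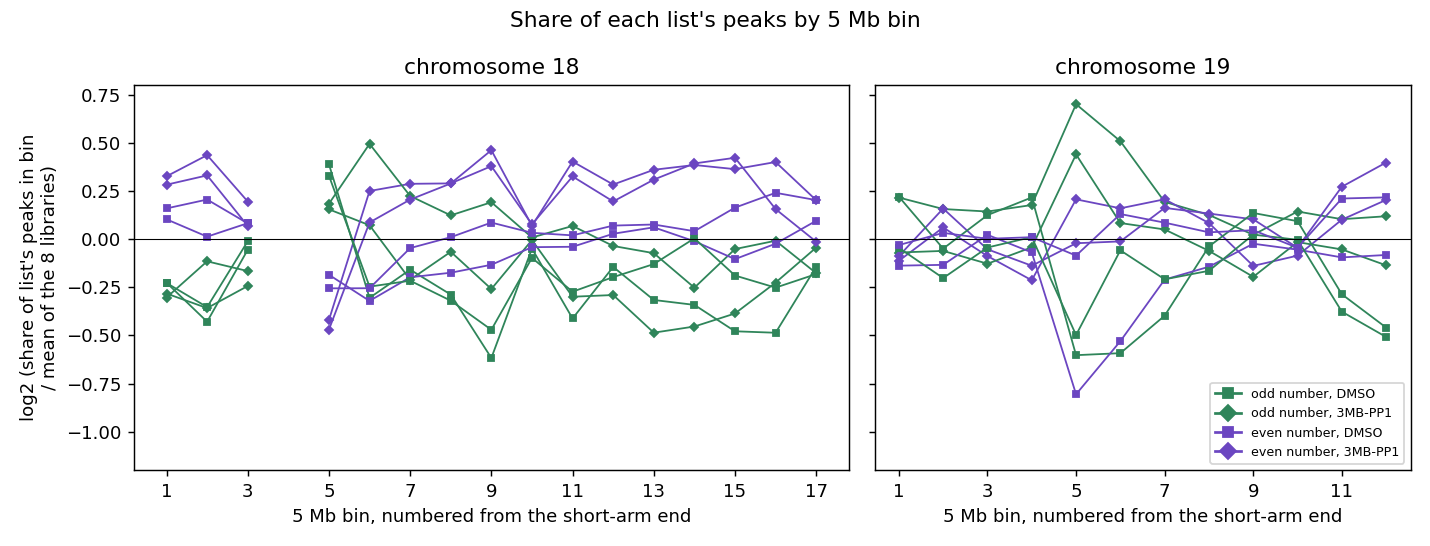
Each line is a library (green odd, purple even replicate number; squares DMSO, diamonds 3MB-PP1), and the y axis is the log2 of its share of peaks in a 5 Mb bin over the mean of the 8 libraries, by bin numbered from the short-arm end (x axis); bin 4 of chromosome 18, with fewer than 20 peaks in at least 1 list, is left out. On chromosome 18 the purple lines run mostly above the green ones except in bin 5 (20 to 25 Mb), and on chromosome 19 bin 5 has the 3MB-PP1 libraries above the DMSO libraries.

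By treatment, 1 of 16 bins on chromosome 18 (25 to 30 Mb) and 1 of 12 on chromosome 19 (20 to 25 Mb) had all 3MB-PP1 above all DMSO libraries, where the background was 7.75%, and none had all below (background 9.86%). The chromosome 19 bin, in which 32 of 34 protein-coding genes are zinc finger genes, held 30.5, 26.5, 32.8 and 43.7 peaks per 100000 in DMSO and 75.4, 53.5, 62.9 and 45.7 in 3MB-PP1. The groups nearly meet, between DMSO replicate 4 and 3MB-PP1 replicate 4, and the log2 ratio of means was 0.83. A gene-end peak was called at 193 of the 258 zinc finger genes on average in DMSO and 212 in 3MB-PP1, beside 74.9 and 78.9% of all genes on chromosome 19, and at 0, 3, 2 and 4 of the 9 NLRP genes in DMSO and 5, 8, 7 and 5 in 3MB-PP1. From DMSO to 3MB-PP1, means also rose for olfactory receptors (7.25 to 11), CEACAM and PSG (15.25 to 18.5), kallikreins (7.25 to 8.25) and serpins (4.5 to 5.75). They rose too for classical cadherins (2.5 to 3.5), laminin alpha genes (1.75 to 2) and cell division genes of chromosome 18 (7 to 7.25). The KIR, LILR and SIGLEC genes fell from 18.8 to 16 of 28. So did the cell division genes of chromosome 19 (5.5 to 5.25 of 6) and the desmosomal cadherins (4 to 3.75 of 7). The SMAD, ribosomal protein and immediate early genes did not change. These counts were described after the values were seen and were not tested. They may move with list length, which was the shorter in DMSO on average, but did not follow it in every library. The part of list length in them was not tested.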

How the data were processed

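ATAC-seq peaks were deposited by the authors as 1 list per library, with hg38 coordinates and MACS2 and DESeq2 named in the submitters' processing notes; aligner, filters and caller settings are not given in the sources used here. The deposited pileup is a signal (coverage) with no stated scaling, the deposited fold enrichment a ratio to background, and the deposited −log10 p and q values are each peak's own. All are the authors' values and only ranked or filtered peaks within a list. The lists hold peaks past a threshold, so no call is not no signal. How they were made can change peak number and width.

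Genes came from RefSeq (GRCh38.p14). Genes of alternate scaffolds, which the table gives under their chromosome (2 protein-coding on 18, 41 on 19), were left out. Chromosome lengths and strand were not used: densities are per Mb of span from first to last peak, and both ends of a gene count. The 6 measures were compared between chromosomes over 8 libraries by exact sign-flip (256 assignments), and between treatments by exact permutation (70 assignments). Adjustment was over 6, 6 and 12 tests.

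Members, gene lists, tests and the naming rule were chosen with earlier results of these data known. The rule named the first 10 genes per chromosome with a peak in 8 lists, genes and regions in 4 of 4 against 0 of 4 lists, and shared regions away from gene ends, by mean pileup percentile. Of what the rule named, 1 gene and 1 region are not reported here. Same-numbered libraries deviated together (correlations 0.381 to 0.569 over 2693 bins of 1 Mb), and each DMSO library matched its own number best. For DMSO replicate 3 the other odd number came close (0.354 against 0.381). On 18 and 19 alone (130 bins) the same-number correlations were 0.489 to 0.648. There DMSO replicates 2 and 4 matched the other even number better (0.721 against 0.648, and 0.523 against 0.489). No label gives a pairing, and on these chromosomes it cannot be told apart from the odd and even sets. Alternatives were q, width and window limits, equal list lengths, merging within 500 bp, other ranks, leaving out each library, the replicate block, and, added after seeing the data, start sites only. Python 3.11.15, numpy 2.4.6, pandas 2.3.3 and matplotlib 3.10.9 were used. Interval code was checked against bedtools 2.31.1 and tests on simulated data.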

Additional observations from a re-analysis of the deposited data

Results flagged for a closer look

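The 3MB-PP1 library of replicate number 1 had peaks over 2.34% of chromosome 18, while its 3 group members had 3.13 to 3.28%. It stood far from the rest of its group: the gap to the nearest library was 0.840 of the group's whole range, past the 95% critical value for 4 samples. Of 36 groups tested in this way this was the 1 found, and chance flags about 1 in 20 groups. DMSO replicate 1 covered 2.41%. Without this 3MB-PP1 library the treatment difference in covered share changed sign, from −0.0017 to 0.216 points, with neither value past the threshold.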

How the results depend on the processing

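Of the comparisons of chromosome 19 with 18, all 6 kept direction and side of the threshold when any 1 library was left out, and the exceptions among other settings were 3. The pileup percentile difference became −16.3 points when ranked by fold enrichment, the width difference −16.3 bp at a −log10 q of at least 5, and the difference in genes with a gene-end peak −1.08 points, past no threshold, with a window of 2.5 kb. Leaving out a library gave log2 density ratios of 0.304 to 0.390.

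No treatment result passed the threshold after adjustment, so the changes below compare unadjusted exact p-values or signs only, and the cause was not tested. With −log10 q of at least 5, the treatment difference turned in sign for the 19 to 18 contrast of density (0.17 log2, exact permutation p = 0.0286), covered share (0.15 log2), width (0.375 bp), pileup percentile (−1.54) and genes with a gene-end peak (2.67 points). At that limit it also turned for density (−0.878 on 18, −2.27 on 19 per Mb), gene-end share (6.48 points on 18, 2.53 on 19) and genes with a gene-end peak (−9.14 on 18, −6.47 on 19). The pileup contrast between treatments was −0.224 at a width of at least 300 bp, −2.64 ranked by −log10 p and −5.23 ranked by fold enrichment. On chromosome 19 the rank difference was −0.102 by −log10 p and −3.75 by fold enrichment, and on chromosome 18 it was 1.47 by fold enrichment (exact permutation p = 0.0286). Merging within 500 bp made the covered share difference on chromosome 18 0.0878 points. Equal list lengths made it −0.651 points on chromosome 19 (exact permutation p = 0.0286) and the gene-end share difference on chromosome 18 0.0473 points, and a width of at least 300 bp made the latter 0.212.

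The difference in chromosome 18 genes with a gene-end peak lost an unadjusted p under 0.05 with equal list lengths (2.80 points), a width of at least 300 bp (1.68), the common smallest width of 135 bp (3.64), windows of 100 bp (2.99) and 2.5 kb (4.38) and start sites only (5.98). With the replicate number as a block, the pairing gave 4.66 points, −87.8 bp (18) and −122 bp (19), each at an exact p of 0.13, the smallest that 4 pairs allow, and it changed no other call.

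In odd-numbered libraries alone the treatment differences were 0.0573 log2 in the density contrast, 0.411 points in the contrast of genes with a gene-end peak, 33.7 peaks per Mb on 19, −118 bp on 18, −174 bp on 19 and 6.72 points of chromosome 18 genes. In even-numbered ones they were −0.920 points in the pileup contrast, 6.72 peaks per Mb on 19, 0.0699 points of covered share on 18, −58.0 bp on 18, −70.5 bp on 19 and 2.61 points of genes.

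Leaving out each library in turn gave treatment differences from −0.178 to 0.0233 log2 in the density contrast, −0.947 to 1.23 points in the pileup contrast, −2.02 to 0.832 points in the contrast of genes and −0.194 to 0.216 points of covered share on chromosome 18. It gave −49.9 to −17.6 bp in the width contrast (without DMSO replicate 4, −49.9 bp at exact permutation p = 0.0286). It gave −101 to −78.1 bp (18), −144 to −105 bp (19) and 3.61 to 5.60 points of chromosome 18 genes. Without DMSO replicate 1, 2 or 3 (width on 18) or any 1 of the 3MB-PP1 libraries (width on 19 and genes on 18) the unadjusted exact permutation p was 0.0571. The even minus odd share of peaks on chromosome 19, 0.0149 points, ran from −0.0535 to 0.121 without single libraries and was −0.0548 at a width of at least 300 bp. Regions called in all lists of a treatment only moved with the call rule: with 3 of 4 lists they numbered 74 (DMSO) and 223 (3MB-PP1) on 18 and 82 and 149 on 19, and with a −log10 q of at least 5 they numbered 5, 0, 1 and 0. Depth is unknown, so what it limits could not be stated.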
